A study of Mus musculus with 28 samples.

Results

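The genes described here are the 6 GATA transcription factors of the mouse, Gata1 to Gata6, and the cofactors Zfpm1 and Zfpm2, which encode FOG1 and FOG2. These 8 genes were picked by symbol from the 45706 genes of both expression tables, and each was found under a single Ensembl identifier. They were picked with their levels in these cells already known, so their own values are given as a description, without p-values, and the calls given below only place them among all genes. RNA sequencing had been done on mIMCD-3, a mouse inner medullary collecting duct line made from an SV40 transgenic animal. Libraries came from the unsorted parental population (polyclonal WT), from WT5, a population grown from a single sorted cell, and from subclones 1 to 5, each grown from a single sorted WT5 cell, with 4 libraries per line and 28 in all. None of these cells had been genome-edited or treated with an agent, and the study's methods give the same medium for all. WT5 and each subclone stand for 1 clone each.

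GATA factors bind short DNA sites with a core of the letters GATA through a pair of zinc fingers, and FOG proteins bind the first of these fingers and recruit corepressors. GATA1 and GATA2 are best known from blood, GATA3 from T helper cells and from the nephric duct and its collecting duct descendants, and GATA4, GATA5 and GATA6 from heart, gut and gonad. GATA2 and GATA3 are the family members expressed in the adult collecting duct, where GATA2 has been tied to genes of vasopressin-regulated water transport and GATA3 to Ret and branching of the duct.

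Values are TPM, an RSEM estimate of abundance scaled for transcript length and for the library, so levels of different genes can be set side by side. Polyclonal cells were read as short single ends and the monoclonal cells as longer paired ends, and the study's methods say that the polyclonal and monoclonal samples were not sequenced at the same time, so read type, sequencing time and line cannot be told apart in any comparison with polyclonal WT. The subclones stand in another table than WT5, so table and line cannot be told apart in a comparison of a subclone with WT5. The genes above 0 numbered 18681 to 19272 per polyclonal library, 16318 to 16536 in WT5 and 16270 to 17004 in the subclones. Read depth is unknown from TPM, so no counting error can be attached to a value near 0. Of 20 genes that every cell uses, none was at 0 in any library, and the lowest of their values was 9.84 TPM. In bulk RNA, fewer expressing cells and less RNA per expressing cell cannot be told apart.

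The promoters of the GATA genes and the FOG gene that differed most between polyclonal WT and WT5 are shown to give their sequence context. Each is the 250 bases before an annotated start, from RefSeq on GRCm38.p6, 5′ to 3′ on the gene's strand, with CpG dinucleotides, the sites of DNA methylation, in capitals. Gata2 has 2 listed starts, at chr6:88193641-88193890 and chr6:88198414-88198663 on the plus strand, the window of Gata3 is chr2:9878601-9878850 on the minus strand, and that of Zfpm1 is chr8:122281891-122282140 on the plus strand.
Gata3: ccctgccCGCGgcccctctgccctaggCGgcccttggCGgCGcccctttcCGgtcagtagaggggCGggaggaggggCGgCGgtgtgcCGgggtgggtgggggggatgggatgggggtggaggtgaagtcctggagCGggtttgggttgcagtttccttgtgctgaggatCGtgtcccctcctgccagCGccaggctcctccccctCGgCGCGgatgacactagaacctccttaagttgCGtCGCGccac
Gata2, upstream start: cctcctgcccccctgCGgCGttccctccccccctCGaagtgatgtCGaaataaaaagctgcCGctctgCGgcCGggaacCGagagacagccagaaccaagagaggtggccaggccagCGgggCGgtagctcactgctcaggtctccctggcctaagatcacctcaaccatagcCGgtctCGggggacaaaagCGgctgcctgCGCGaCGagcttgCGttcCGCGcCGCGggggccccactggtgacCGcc
Gata2, downstream start: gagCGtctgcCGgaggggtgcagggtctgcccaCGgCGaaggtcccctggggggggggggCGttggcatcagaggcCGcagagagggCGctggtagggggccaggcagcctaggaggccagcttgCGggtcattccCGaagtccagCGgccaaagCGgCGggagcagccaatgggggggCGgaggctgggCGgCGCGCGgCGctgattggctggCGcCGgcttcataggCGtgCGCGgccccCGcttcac
Zfpm1: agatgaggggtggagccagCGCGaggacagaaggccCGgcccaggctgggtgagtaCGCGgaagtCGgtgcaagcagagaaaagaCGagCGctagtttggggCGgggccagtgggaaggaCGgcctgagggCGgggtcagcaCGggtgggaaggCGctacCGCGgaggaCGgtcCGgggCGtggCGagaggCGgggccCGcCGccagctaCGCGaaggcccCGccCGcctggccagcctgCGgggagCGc
These windows hold 19 CpG dinucleotides in Gata3, 22 and 24 at the Gata2 starts and 28 in Zfpm1, against a median of 6 over 32851 promoters. They had more CpG than 80.3%, 85.2%, 88% and 92.4% of all promoters, respectively. None of them held a GATA site, searched on both strands as the letters GATA after an A or a T and before an A or a G, and neither did the windows of Gata1 and Gata5. A site was found in 26.5% of all promoters. No match means only that these letters are not in the window. The table of promoters listed 5 of the 8 genes.

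Gata3 was the GATA gene of polyclonal cells. It lies on chromosome 2 from 9857078 to 9890034 (GRCm38, minus strand). Its level in the polyclonal libraries was 3.83, 2.63, 4.81 and 5.06 TPM. In WT5 it was 0.04, 0.03, 0.05 and 0.04 TPM. No library of WT5 came near the polyclonal range, and the mean fell from 4.08 ± 1.10 to 0.0400 ± 0.00816 TPM (SD, n = 4 each), a ratio of 102. All 20 subclone libraries stayed at or below 0.23 TPM, with means from 0.0725 TPM in subclone 1 to 0.158 TPM in subclone 2. The subclones and WT5 formed a continuous low order in which each neighbour overlapped the next. Subclones 2, 3 and 4 nonetheless lay wholly above WT5, at 3.94, 3.81 and 2.94 times its mean, although these differences are about 0.1 TPM.

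Gata2 showed a different order, and the WT5 lineage itself was divided. The gene spans 88193891 to 88207032 on chromosome 6. WT5 libraries were at 0.84, 0.85, 1.14 and 0.96 TPM. Subclone 1 was at 1.93, 1.47, 1.15 and 1.14 TPM and subclone 2 at 0.8, 0.6, 0.49 and 0.63 TPM. The lowest library of subclone 1 equalled the highest of WT5, whereas subclone 2 lay below WT5 without overlap. Subclones 3, 4 and 5 held little of the transcript. Subclone 3 ranged from 0.06 to 0.12 TPM, subclone 4 from 0.02 to 0.05 TPM and subclone 5 from 0.04 to 0.15 TPM. Their means were 11.5, 29.2 and 10.8 times below that of WT5. Polyclonal WT, at 0, 0.15, 0.01 and 0.1 TPM, overlapped these 3 subclones, which were thus not separated from the parental population. The mean of WT5, 0.948 ± 0.139 TPM (SD, n = 4), was 14.6 times that of polyclonal WT, 0.0650 ± 0.0723 TPM (SD, n = 4), and 25.8 times without polyclonal replicate 2, the highest of that line.

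**Figure D1:**
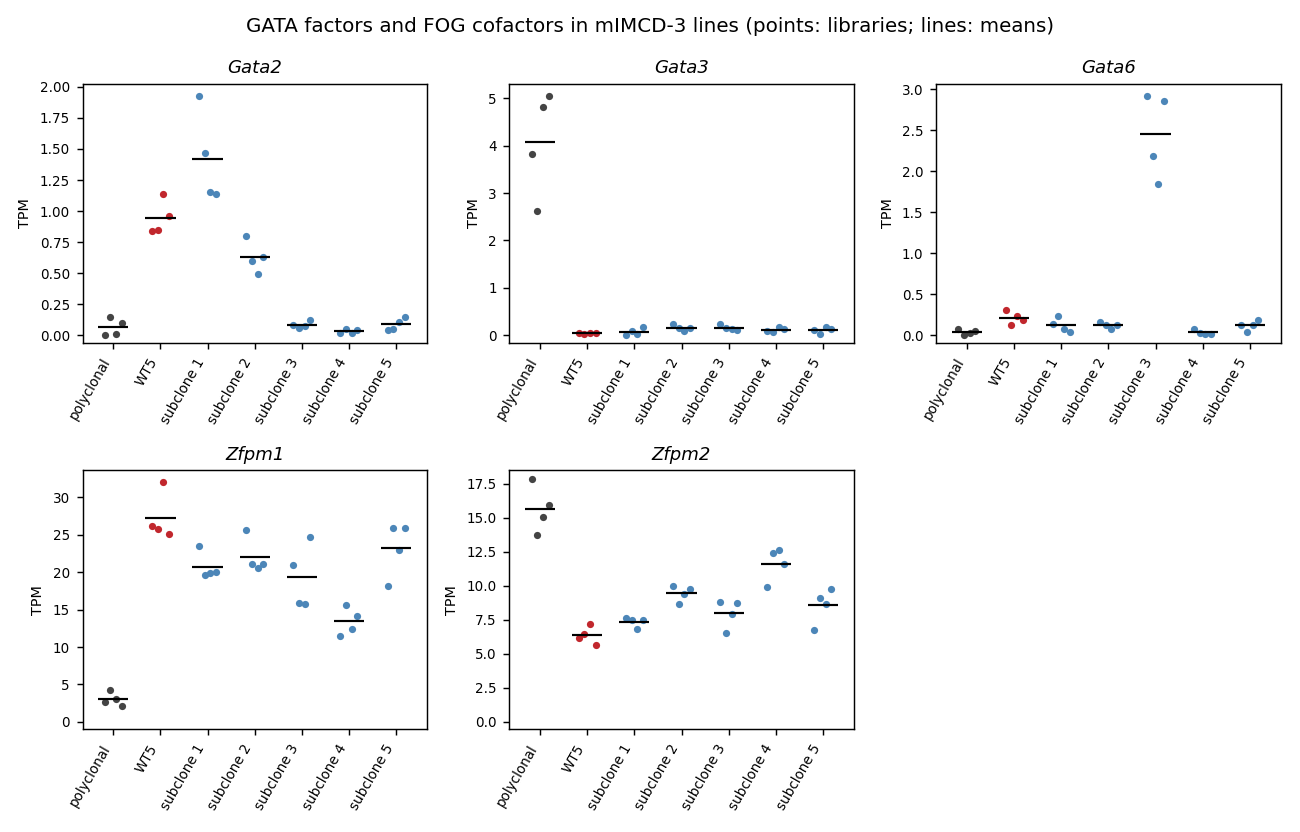
TPM (linear axis) of the 5 members with a mean of at least 1 TPM in some line, by line; each point is a library and each black line the mean of 4. Gata3 is high in polyclonal WT, at a mean of 4.08 TPM, Gata6 in subclone 3, at 2.45 TPM, and Gata2 in WT5 and subclones 1 and 2, at 0.948, 1.42 and 0.630 TPM.

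Gata6, on chromosome 18, was high in a single subclone. Subclone 3 was at 2.92, 2.19, 1.84 and 2.86 TPM. WT5 was at 0.31, 0.13, 0.23 and 0.19 TPM, so the groups were far apart, and the mean of subclone 3, 2.45 ± 0.526 TPM, was 11.4 times that of WT5, 0.215 ± 0.0755 TPM (SD, n = 4 each). Subclone 4 lay on the other side of WT5, at 0.07, 0.03, 0.02 and 0.02 TPM, a mean 6.14 times lower and also without overlap, or 9.21 times lower without replicate 1 of that subclone. Subclones 1, 2 and 5, with means of 0.123, 0.120 and 0.120 TPM, overlapped WT5. Polyclonal WT was at 0.08, 0, 0.03 and 0.05 TPM, and overlapped subclone 4. An antisense transcript over Gata6, 1010001N08Rik, was above 0 in 3 of the 28 libraries, all of subclone 3, at 0.08, 0.07 and 0.07 TPM. Of the 50-base stretches of Gata6 transcripts, 44 of 6449 also occur in that transcript, and strand use in counting is not stated in the sources used here, so a part of its value could be counted from Gata6 reads.

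The other 3 GATA genes were at or near 0. Gata5 was at 0 in all 28 libraries. Gata4 was at 0.04 TPM in polyclonal replicates 1 and 4 and at 0.02 TPM in subclone 4 replicate 4, and at 0 elsewhere. Gata1, the master factor of red cell genes, was at 0.03, 0.08, 0.07 and 0.08 TPM in polyclonal WT and at 0 in every other library. Haemoglobin transcripts were also seen in polyclonal WT, with Hbb-bs at 77.5 TPM in replicate 1, 11.7 TPM in replicate 4 and 0 in the others. Replicates 2 and 3, with Hbb-bs at 0, had Gata1 at 0.08 and 0.07 TPM. Gata1 values so near 0 cannot show whether these transcripts follow each other from library to library.

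Added up, the 6 GATA genes gave 4.27 ± 1.10 TPM in polyclonal WT, 1.2 ± 0.168 TPM in WT5 and from 0.190 ± 0.0356 TPM in subclone 4 to 2.69 ± 0.563 TPM in subclone 3 (SD, n = 4 each). Gata3 made up 95.2% of this sum in polyclonal WT. Gata2 made up 78.9% in WT5, 87.8% in subclone 1 and 70% in subclone 2. Gata6 made up 91.2% in subclone 3. In subclones 4 and 5 the sums were 0.190 and 0.318 TPM, and no GATA gene passed 0.19 TPM in any of their libraries. The leading GATA transcript thus differed between polyclonal WT and WT5, and again between WT5 and subclone 3.

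**Figure D2:**
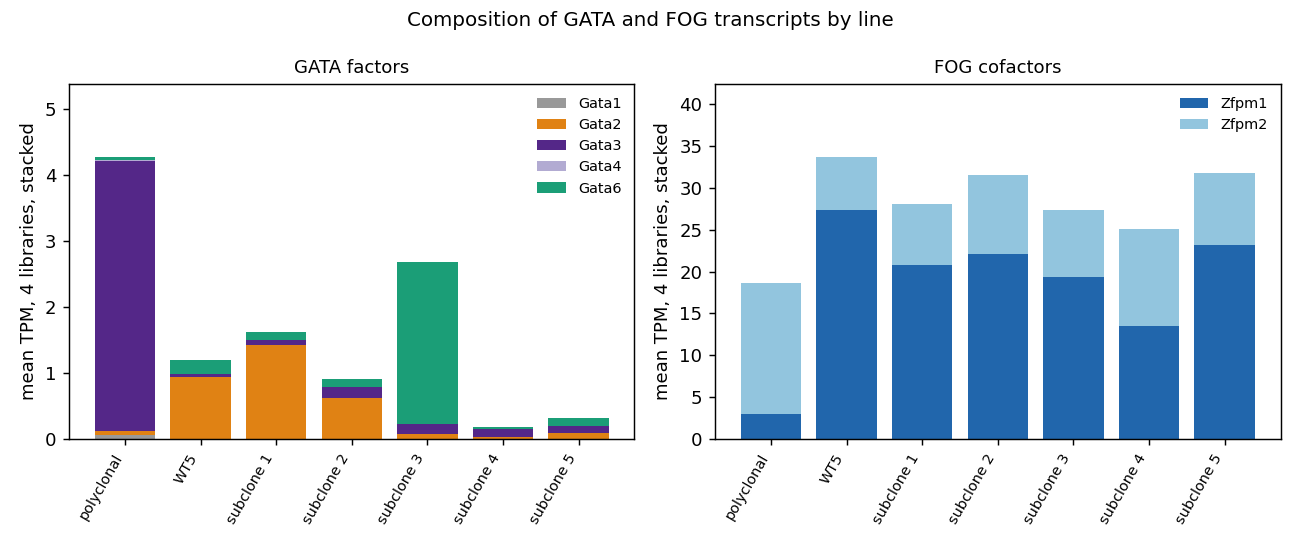
Stacked mean TPM of 4 libraries per line (axis from 0) for the GATA genes, left, and the FOG genes, right; Gata5 is left out since it was at 0 in every library. The GATA sum is highest in polyclonal WT, at 4.27 TPM, and lowest in subclone 4, at 0.190 TPM. It is 1.2 TPM in WT5 and 2.69 TPM in subclone 3. The FOG sum stays between 18.7 and 33.7 TPM.

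The FOG cofactors were more abundant than any GATA factor in WT5 and the subclones, and they differed between polyclonal WT and WT5 in opposite directions. Zfpm1 spans 122282141 to 122337251 on chromosome 8 and Zfpm2 spans 40655035 to 41104592 on chromosome 15. Zfpm1 was at 2.72, 4.23, 3.1 and 2.13 TPM in polyclonal WT. In WT5 it was at 26.12, 25.81, 32.09 and 25.15 TPM, every library above the polyclonal range and the mean 8.96 times higher. The 5 subclones kept Zfpm1 between 11.53 and 25.89 TPM, with the lowest mean, 13.5 ± 1.82 TPM (SD, n = 4), in subclone 4, a level below every other monoclonal library. That mean was 2.03 times below WT5. Subclones 2 and 5 overlapped WT5.

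Zfpm2 was at 17.87, 13.75, 15.02 and 15.96 TPM in polyclonal WT and at 6.17, 6.47, 7.19 and 5.65 TPM in WT5, 2.46 times lower and without overlap. Its highest level among the subclones was in subclone 4, at 9.88, 12.4, 12.66 and 11.58 TPM, 1.83 times WT5. Subclone 2 also lay above WT5 without overlap, at 1.48 times, and subclones 1, 3 and 5 overlapped it. Zfpm1 made up 16.4% ± 5.26 of the FOG sum in polyclonal WT, 81.1% ± 0.817 in WT5 and 53.6% ± 2.75 in subclone 4 (SD, n = 4 each). In the other subclones it made up from 69.9% to 73.8%. The sum itself was 18.7 TPM in polyclonal WT, 33.7 TPM in WT5 and 25.1 to 31.8 TPM in the subclones.

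In GENCODE M21 transcripts, shared sequence touched few of these values. The TPM were made with another annotation release, so overlap in the gene models that were counted could not be checked. None of the 50-base stretches of Gata1, Gata2, Gata4, Zfpm1 or Zfpm2 transcripts occurs in another gene. For Gata3, 88 of 3966 do, in the overlapping genes 9230102O04Rik and Gm13256, of which Gm13256 was at 0.5, 0.12, 0.28 and 0 TPM in polyclonal WT and at 0 in all other libraries. Gm20388, a gene model that overlaps Zfpm1 on the same strand, shares no stretch with it in M21. It was at 49.8 to 54.4 TPM in polyclonal WT and at 0 in WT5, and at most 8.06 TPM in a subclone. How reads were divided between Gm20388 and Zfpm1 was not tested.

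To set the members against all genes, log2(TPM) was z-scored within each library over the genes above 0 in every library of a set. For WT5 against polyclonal WT the set was the libraries of these lines. For each subclone against WT5 it was all libraries of WT5 and the 5 subclones, and among the subclones all subclone libraries. A gene was called by limma at a Benjamini-Hochberg adjusted p below 0.01 and a z-score difference above 1. A difference of 1 is a change of 8.04 to 8.56 times. Between WT5 and polyclonal WT, 3 of the 8 members could be fitted, since a library at 0 removed the others. Of these 1 was called, Gata3, at a z-score difference of -2.23 (SE 0.0748), where 5.43% of the 13723 genes were called. Zfpm1, at 0.961 (SE 0.0668), fell just short of the limit, and Zfpm2 was at -0.492 (SE 0.0317). When a log2 difference above 1 replaced the z-score limit, all 3 were called, where 25.5% of genes were. On that scale the median gene was 0.24 higher in WT5, and 2327 genes were called higher and 1174 lower, against 317 and 428 on the z-score scale.

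Between the subclones and WT5, 4 members were fitted, Gata2, Gata6 and both FOG genes. Gata3 was left out of all these comparisons because subclone 1 replicate 1 was at 0. It was above 0 in every library of WT5 and of subclones 2 to 5, where its difference from WT5 was therefore not tested. None of the 4 was called in subclone 1, where 0.152% of 13860 genes were, or in subclone 2, where 0.144% were, though 3 and 4 of them had an unadjusted p below 0.05 in limma, as did 51% and 51.5% of all genes. In subclone 3 the calls were Gata6, at 1.14 (SE 0.0884), and Gata2, at -1.24 (SE 0.0465), where 0.173% of genes were called. In subclone 4 they were Gata2, at -1.73 (SE 0.101), and Gata6, at -1.01 (SE 0.158), where 0.202% were called. In subclone 5 the call was Gata2, at -1.23 (SE 0.130), where 0.173% were called. Among the 5 subclones, whose libraries share 1 table, Gata2 and Gata6 were called of the 4 fitted, where 0.613% of 14031 genes were. Under the log2 rule Zfpm1 was added in subclone 4, where 5.14% of genes were called, and the members called in the other subclones were as before, where 3.17%, 2.69%, 3.61% and 3.45% of genes were called in subclones 1, 2, 3 and 5 and 5.4% among the subclones. The genes were picked with these differences known, so nothing is read from the counts. All 5 comparisons share the WT5 libraries. The calls depended on how low values were treated. With a pseudocount of 0.1 TPM, Gata6 alone was called in subclone 3, Gata2 alone in subclone 4 and neither in subclone 5.

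**Figure D3:**
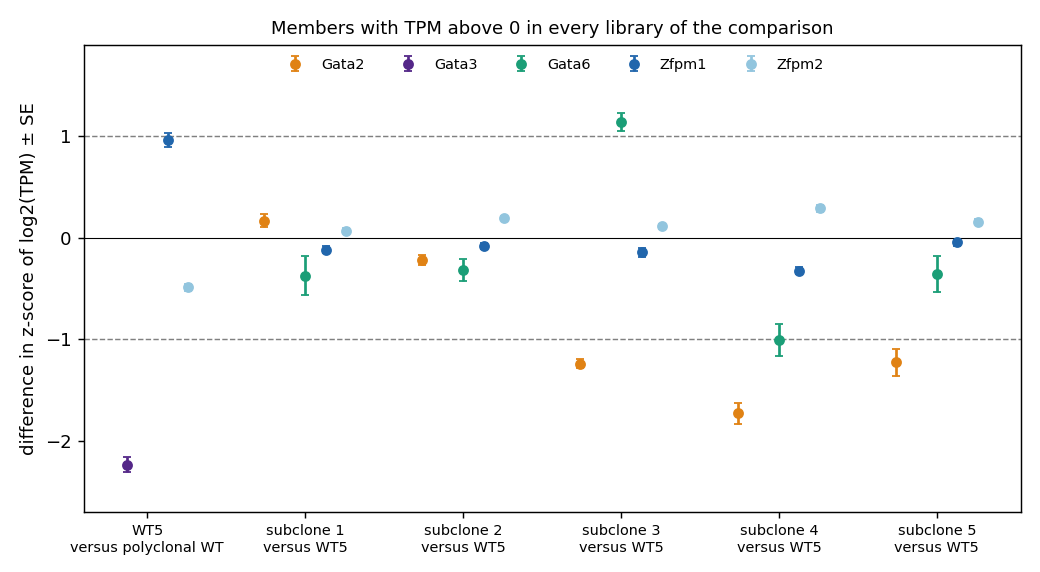
Difference in z-score of log2(TPM) for members fitted in each comparison, with the standard error from limma as bars; dashed lines mark a difference of 1 in either direction. Gata3 lies at -2.23 in WT5 versus polyclonal WT, and Gata2 below -1 in subclones 3, 4 and 5, where both FOG genes stay within 0.4 of 0.

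Genes that GATA and FOG proteins work with were also set against all genes. In all 6 lists were drawn up, of GATA-type zinc finger relatives, of partners in the LDB1 and E-protein complex, of FOG-bound corepressors, of modifying enzymes and coactivators, of duct genes linked to GATA2 or GATA3, and of other duct and urothelial transcription factors, with 85 genes together. Between WT5 and polyclonal WT, 4 of the 64 that could be fitted were called, 2 higher and 2 lower, where 5.43% of all genes were. None of the 66 fitted was called in any subclone against WT5 or among the subclones, by limma or, against WT5, by the unequal-variance test, although 24 to 42 of them had an unadjusted p below 0.05, as did 46.2% to 59% of all genes. Under the log2 rule the calls were 14 of 64 between WT5 and polyclonal WT, where 25.5% of all genes were called. Against WT5 they were then 1, 0, 4, 5 and 4 of 66 in subclones 1 to 5, where 3.17%, 2.69%, 3.61%, 5.14% and 3.45% of all genes were called, and among the subclones 7 of 66, where 5.4% were.

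All 11 fitted corepressor genes, among them the NuRD subunits Chd4 and Hdac1 and the CtBP genes, went uncalled between WT5 and polyclonal WT on either scale, at a median z-score difference of 0.0378 against 0.00991 for all genes. None of the 9 relatives was called by the z-score rule, among them Trps1. Its mean was 7.66 ± 0.640 TPM in WT5 against 11.8 ± 1.46 TPM in the parental population (SD, n = 4 each). Under the log2 rule 1 relative, Zglp1, was called, higher in WT5. None of the 14 enzymes and coactivators was called by the z-score rule. Of these 3, Hdac4, Brd3 and Ep300, were higher under the log2 rule, where 17% of all genes were. Of 11 fitted LDB1 and E-protein partners 1 was called by the z-score rule. Under the log2 rule 3 were, Spi1 and Runx1 higher and Ssbp2 lower, where 25.5% of all genes were called. Ssbp2, which encodes a protein that stabilises LDB1, was at 16.24, 16.65, 17.42 and 14.41 TPM in polyclonal WT and at 0.62, 1.09, 0.99 and 0.78 TPM in WT5. It fell by 4.25 on the log2 scale (SE 0.174, adjusted p = 3.6e-07 by limma) and ranged from 0.73 to 3.08 TPM in the subclones. The blood factors of this list were mostly too low to be fitted, 11 of 20 being above 0 in every library.

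Among the duct genes linked to GATA2 or GATA3, 3 of 10 could be fitted between WT5 and polyclonal WT, and 1 was called. Avpr2, the vasopressin V2 receptor gene, was at 10.8, 10.79, 10.97 and 9.7 TPM in polyclonal WT. In WT5 it was at 0.17, 0.02, 0.01 and 0.04 TPM, far below every polyclonal library. The fall was 8.27 on the log2 scale (SE 0.781, adjusted p = 3.05e-05 by limma), and Avpr2 stayed at or below 0.4 TPM in all subclones. Avpr2 was low in WT5 and subclone 1, where Gata2 was highest, and in subclones 3 to 5, where Gata2 was low. In polyclonal WT, where Avpr2 was highest, Gata2 was also low, at a mean of 0.065 TPM. A link between the levels of these genes was not tested. Aqp2, the water channel gene downstream of that receptor, was at 0 in all 28 libraries. Ret, the receptor gene of the budding duct, did not pass 0.01 TPM in any library, and its partner Gfra1 ranged from 1.62 to 11.56 TPM in WT5 and the subclones and from 0 to 0.05 TPM in polyclonal WT.

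Slc14a2 and Scnn1g, also of that list, were singled out after their values were seen. The urea transporter gene Slc14a2 was at 4.81, 5.32, 5.33 and 4.5 TPM in subclone 4 and at 2.06, 2.65, 2.48 and 2.41 TPM in subclone 5. It stayed at or below 0.35 TPM in every other library. Scnn1g, for the gamma subunit of the epithelial sodium channel, had means of 16.0 ± 1.61 TPM in subclone 5, 14.3 ± 0.736 TPM in polyclonal WT and 3.16 ± 0.497 TPM in subclone 3 (SD, n = 4 each). Subclone 5 lay above all other WT5-derived libraries. Neither gene passed the z-score rule among the subclones, Slc14a2 because libraries at 0 kept it out of the fit.

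Of 16 fitted duct and urothelial transcription factors, 2 were called higher in WT5 than in polyclonal WT. Sox9, a factor of the branching tips and of injured tubules, was at 0.48, 0.39, 0.25 and 0.45 TPM in polyclonal WT and at 9.53, 9.71, 9.81 and 9.36 TPM in WT5. It rose by 4.66 on the log2 scale (SE 0.193, adjusted p = 3.78e-07 by limma). Lhx1, a factor needed for the nephric duct, was at 0.59, 0.61, 0.89 and 0.3 TPM in polyclonal WT and at 8.51, 9.16, 9.64 and 9.83 TPM in WT5, a rise of 4.06 (SE 0.296, adjusted p = 7.23e-06 by limma). The groups did not overlap for either gene. In the subclones Sox9 ranged from 3.63 to 10.8 TPM and Lhx1 from 2.88 to 10.68 TPM, with the lowest means in subclone 3 for Sox9 and in subclone 5 for Lhx1.

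**Figure D4:**
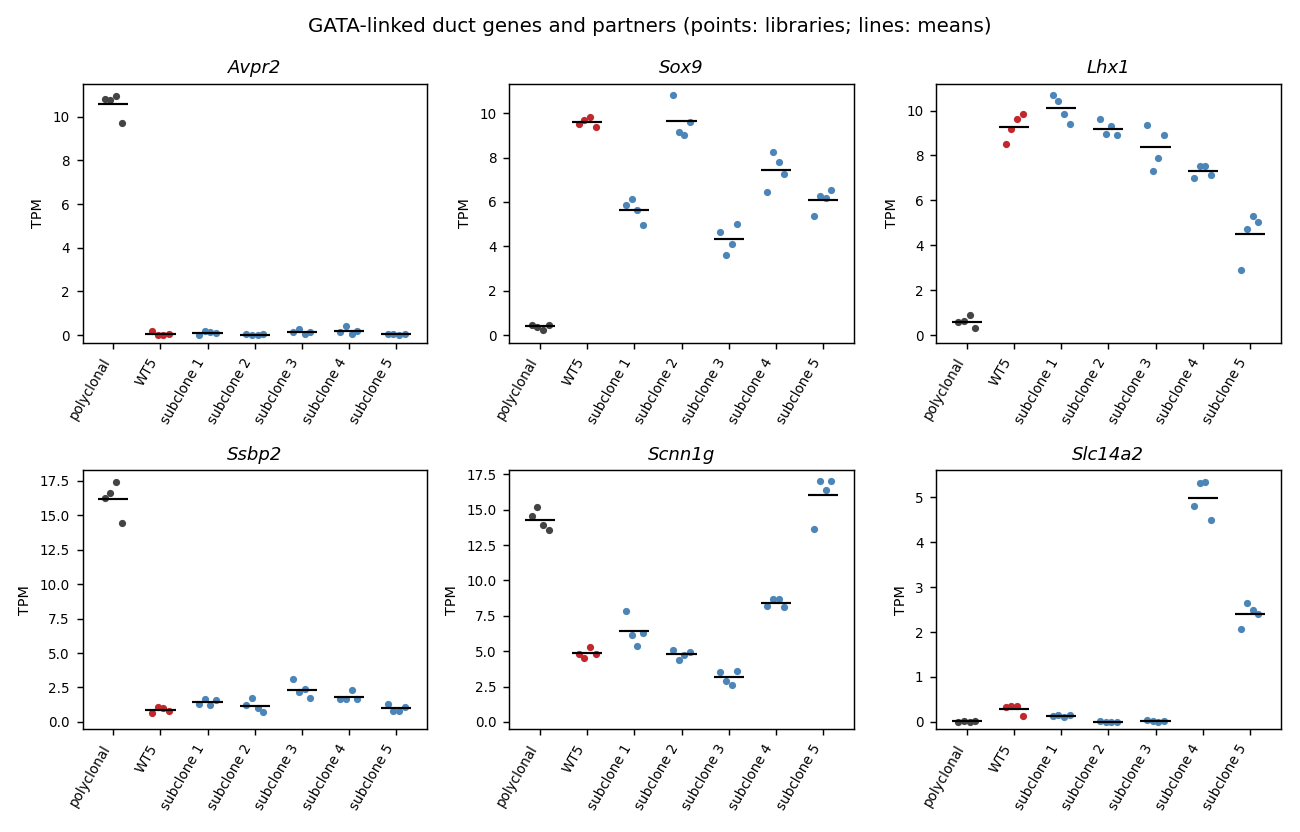
TPM (linear axis) of Avpr2, Sox9, Lhx1, Ssbp2, Scnn1g and Slc14a2 by line; each point is a library and each black line the mean of 4. Avpr2 and Ssbp2 are high only in polyclonal WT, at means of 10.6 and 16.2 TPM, Sox9 and Lhx1 low only there, at 0.393 and 0.598 TPM, and Slc14a2 passes 2 TPM only in subclones 4 and 5.

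Of 14 collecting duct epithelial markers, 8 to 11 had a mean of at least 1 TPM in each line, led by Krt8 or Krt18, and the summed level ran from 1884 to 3294 TPM. Aqp2 was at 0 in all libraries, and in each line 1 to 3 of the 14 were at 0 in every library. Of 11 fitted between WT5 and polyclonal WT, Avpr2 was called lower in WT5, where 5.43% of all genes were called. Under the log2 rule 6 of them passed, 4 higher in WT5, where 25.5% of all genes did. In subclone 4, 5 of 10 passed the log2 rule against WT5, 2 of them higher, where 5.14% of all genes did. Of the marker lists of other tissues that use GATA factors, Cd3e, Il13 and Fcer1a of leukocytes, Alb and Hnf4a of liver and Myh6, Myh7, Nkx2-5 and Hand2 of heart were at 0 in all 28 libraries. The endothelial list summed to at most 0.3 TPM in any library. Other members of these lists were present. Itga2b, the integrin alpha IIb gene of the leukocyte list, had a mean of 3.91 TPM in polyclonal WT and of 6.18 to 10.5 TPM elsewhere, and Apoa2 of the liver list had a mean of 1.2 to 2.35 TPM in every line. Il4, a T helper cytokine gene, was at 5.11, 4.76, 3.18 and 3.88 TPM in polyclonal WT, at 0 in WT5 and at a mean of at most 0.07 TPM in a subclone. Epor, the erythropoietin receptor gene, averaged 4.47 TPM in polyclonal WT and 9.21 to 12.7 TPM elsewhere. Tnnt2 of the cardiac list, at a mean of 21.7 TPM in WT5 against 1.35 TPM in polyclonal cells, and Sox8 of the gonadal list, at 2.49 against 0.213 TPM, were called higher in WT5. Krt23, below 1 TPM in the mean of every line, was called among the subclones. The part of other cells in the levels of the members was not tested.

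Genes next to the members were looked up within 100 kb. Next to Gata3, the Taf3 gene, for a TFIID subunit, had a mean of 18.6 ± 1.88 TPM in WT5 against 10.9 ± 0.922 TPM in polyclonal cells (SD, n = 4 each), in the other direction to Gata3 and below the call limit. Next to Gata2, the genes Rpn1 and Eefsec, for an oligosaccharyltransferase subunit and a selenocysteine elongation factor, were lowest in subclone 4, where Gata2 was lowest too. Rpn1 was at 73.42, 75.16, 69.99 and 69.51 TPM there and at 131.08, 137.57, 139.5 and 139.84 TPM in WT5. Eefsec was at 12.92, 14.91, 14.67 and 14.05 TPM and at 24.74, 24.94, 24.25 and 23.71 TPM. Both lay below WT5 without overlap, Rpn1 by a log2 difference of -0.93 (adjusted p = 6.18e-06 by limma) and Eefsec by -0.79 (adjusted p = 2.65e-05), short of the call limits on both scales. In subclones 3 and 5, where Gata2 was also low, Rpn1 averaged 105 and 118 TPM and Eefsec 21.1 and 20.9 TPM. Of 20 neighbours fitted, 3 were called between WT5 and polyclonal WT under the log2 rule, where 25.5% of all genes were. They were Timm17b next to Gata1, and Rbbp8nl and Rps21 next to Gata5, at -1.71, 1.45 and 1.22, and no other fitted neighbour was called on either scale.

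The genes whose levels over the libraries were most like those of each member were ranked by Pearson's r of log2(TPM + 0.1) among genes with a mean of at least 1 TPM. The libraries come from 7 lines, or 5 in the subclones, and share read type and table within them, so the values are a description. Over the 20 subclone libraries, Gata2 was most like Gm13212 (r = 0.955), Cldn7 (r = 0.931) and Rnf128 (r = 0.919). Cldn7, a tight junction gene, was at 388 TPM in subclone 1 and 252 TPM in subclone 3, and it also ranked high over all 28 libraries (r = 0.842), beside Plekho1 (r = 0.844) and Zscan2 (r = 0.825). Gata6 was most like S100a14 (r = 0.909), Rragd (r = 0.901) and Slc16a12 (r = 0.888) over the subclones. Rragd, a Rag GTPase gene, was at a mean of 4.42 TPM in subclone 3 and 1.08 to 1.57 TPM in the other subclones. Over all 28 libraries Rragd (r = 0.838), Lama3 (r = 0.799) and Slc16a12 (r = 0.766) came first for Gata6.

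Over all 28 libraries, the genes most like Gata3 included Sema3c (r = 0.973) and Gm12989 (r = 0.973), both of them highest in polyclonal WT. Within the subclones, where Gata3 never passed 0.23 TPM, the first ranks were Zfp969 (r = 0.716), Zfp655 (r = 0.681) and B230208H11Rik (r = 0.614), too weak at such levels to be more than a list. Zfpm1 was most like Loxl4 (r = 0.980), Slco2a1 (r = 0.979) and Rasl10a (r = 0.976) over all libraries and like Plxna1 (r = 0.955), Slc22a23 (r = 0.950) and Edem1 (r = 0.946) in the subclones. Zfpm2 was most like Mb21d2 (r = 0.946), Nr2f2 (r = 0.941) and Cbx3 (r = 0.936) over all libraries and like Nin (r = 0.941), Plcxd2 (r = 0.935) and Vopp1 (r = 0.926) in the subclones. Nr2f2, which encodes a nuclear receptor known to bind FOG2, had means of 42.0 TPM in polyclonal WT, 24.2 TPM in WT5 and 36.3 TPM in subclone 4, the same order of these lines as Zfpm2. In subclones 1, 2, 3 and 5 its means were 29.07, 29.23, 29.55 and 31.77 TPM, in another order than those of Zfpm2. It was named for its high r, so some likeness was given by the choice.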

How the data were processed

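RNA of 28 mIMCD-3 libraries had been sequenced. The values deposited by the authors are TPM, made with STAR 2.7.3a on GRCm38 with the Ensembl annotation and with RSEM 1.3.1, in 2 tables joined here by gene identifier, with symbols for 45143 of 45706 genes. TPM keeps no depth, so precision rests on the spread of 4 libraries per line. The methods call these biological replicates and a legend technical ones, so p-values measure the spread between libraries. Log2(TPM) without a pseudocount was z-scored per library, and limma 3.58.1 (R 4.3.3) gave two-sided tests between lines, with Benjamini-Hochberg adjustment over all genes fitted, after tests on simulated data. Positions, shared stretches and promoters came from GENCODE M21 and RefSeq on the same build. GENCODE M21 is another release than the Ensembl annotation behind the TPM.

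Members and gene lists were chosen with earlier results of these data known. Named were all members, list genes called in any comparison (at most 4 per list and comparison) with Avpr2, Aqp2 and Ret, neighbours within 100 kb that were called or beside a called member, and the 3 genes most like each member; some genes these rules name are not reported here. Alternatives were an unequal-variance test, pseudocounts of 0.1 and 1 TPM, a mean of at least 1 TPM, any library above 0 jointly with the lower pseudocount, log2 differences, the replicate number as a block and each library left out.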

Additional observations from a re-analysis of the deposited data

Results flagged for a closer look

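Single libraries stood apart within their line by the gap to the nearest library against the range of the line, in 5 of the 38 groups of 4 libraries tested. Chance flags about 1 in 20 groups, but that rate need not hold for values near 0 given to 2 decimals. Nothing is read from the count. Zfpm1 stood apart at 32.09 TPM in WT5, at 23.51 TPM in subclone 1 and at 25.63 TPM in subclone 2. Zfpm2 stood apart at 6.8 TPM in subclone 1. Gata4 did so in subclone 4, where 1 library was at 0.02 TPM and the others at 0.

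Gata6 moved in opposite directions in subclones of the same parent. Its mean was 11.41 times that of WT5 in subclone 3 and 0.1628 times in subclone 4, with no overlap of libraries in either case. Gata6 was called in the test among the 5 subclones, but the difference between subclones 3 and 4 alone was not tested, and the gene was picked with its values known.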

How the results depend on the processing

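The values of the members kept their direction under every alternative run, and 43 recomputed differences, against 270 that did not, moved by more than the spread between libraries, most under the pseudocounts. Counts of members called depended on how low values were handled. Between WT5 and polyclonal WT the count was 1 and became 3 under the log2 limit and 2 with a mean of at least 1 TPM or a pseudocount of 0.1 or 1, with Zfpm1 added each time. In subclone 4 it rose from 2 to 3 under the log2 limit, with Zfpm1 added. In subclones 3 and 4 the count was 2 and became 1 with a pseudocount of 0.1 and 0 with a pseudocount of 1, with a mean of at least 1 TPM, which kept only the FOG genes in the fit, or with the looser filter of a single library above 0, which was run jointly with a pseudocount of 0.1. In subclone 5 the count was 1 and became 0 under these 4 settings and under the unequal-variance test. Among the subclones it was 2 and became 0 with a pseudocount of 1 or a mean of at least 1 TPM and 1, Gata6, under the looser filter joined to the pseudocount of 0.1. Genes of the 6 lists called rose under the log2 limit from 4 to 14 between WT5 and polyclonal WT, from 0 to 1, 4, 5 and 4 in subclones 1, 3, 4 and 5, and from 0 to 7 among the subclones, while 25.5%, 3.17%, 3.61%, 5.14%, 3.45% and 5.4% of all genes were called under that limit in these comparisons. Among the subclones a mean of at least 1 TPM added Scnn1g, and the looser filter joined to the pseudocount of 0.1 added Slc14a2, 1 gene each.

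With each library left out, the count of members called ranged from 1 to 2 between WT5 and polyclonal WT, as Gata2 was added without polyclonal replicate 1 and Zfpm1 without polyclonal replicate 2. It ranged from 1 to 2 in subclone 4, as Gata6 was lost without WT5 replicate 1 or 3 or subclone 4 replicate 3 or 4. List genes called ranged from 4 to 5 between WT5 and polyclonal WT. Replicate numbers did not pair the libraries, with correlations of same-numbered deviations from -0.0406 to 0.0507, and the replicate block left the counts of members at 1 between WT5 and polyclonal WT, at 0, 0, 2, 2 and 1 in subclones 1 to 5 and at 2 among the subclones. Unknown depth limits every value below about 1 TPM.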
